A study of Mus musculus with 14 samples.

Results

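Epiblast stem cells (EpiSC) were set against trophoblast stem cells (TSC) in the solvent arm of the study, across all genes. The rule takes the 2 EpiSC and 2 TSC libraries that received dimethyl sulfoxide (DMSO), which are 4 of the 14 libraries in the series. Of the 55416 gene identifiers counted, 15529 had enough counts to be tested. The study treated mouse stem cell lines with STM2457, an inhibitor of the RNA methyltransferase METTL3, at 50 µM for 12 h, and the DMSO libraries are its controls. Total RNA was sequenced with a stranded library kit.

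The EpiSC carried the genotype XmolXmus-ΔTsix and were grown in knockout DMEM with knockout serum replacement, Fgf2 and Activin A. The TSC were labelled WT and were grown in fibroblast-conditioned RPMI with fetal bovine serum, Fgf4 and sodium pyruvate. Both lines were of hybrid Mus molossinus and Mus musculus strain. Lineage, genotype, medium and cell line therefore differ together between the groups and cannot be told apart. The labels do not say that the libraries of a group came from separate cultures, so every p-value reflects no more than the variation among the libraries themselves, which may be technical.

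EpiSC come from the epiblast of the early post-implantation embryo, the layer that forms the body, and are held in a primed pluripotent state by Activin and FGF. TSC come from the trophectoderm, the outer layer that forms the placenta, and depend on FGF4 and factors from fibroblasts. The transcription factors POU5F1 and CDX2 restrain each other when the epiblast and trophectoderm lineages separate. Trophoblast also silences the paternal X chromosome by imprinting and carries less DNA methylation than the epiblast.

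The labels matched the markers of the lines (the plot of lineage genes). Values are CPM, the counts of a gene relative to library size, scaled by the trimmed mean of M values (TMM), with the 2 libraries of a line in the order of their replicate numbers. Fold changes are log2 values of EpiSC over TSC ± SE, and means are over 2 libraries per line. Pou5f1, the core pluripotency factor, had 769 and 805 CPM in EpiSC, against 0 and 0 CPM in TSC. For scale, a floor of 3 counts over the TSC libraries was 0.0796 CPM. Nodal, the ligand that patterns the epiblast, had 133 and 136 CPM in EpiSC, against 1.36 and 1.45 CPM in TSC (log2 fold change 6.57 ± 0.13, adjusted p = 2.61e-22). Lefty1, a secreted Nodal inhibitor, had 576 and 601 CPM in EpiSC, against 0.105 and 0.162 CPM in TSC (log2 fold change 12.04 ± 0.17, adjusted p = 2.41e-24). All 3 epiblast genes were high in both EpiSC libraries and near 0 in both TSC libraries. Cdx2, the trophectoderm homeobox factor, had 0.0535 and 0 CPM in EpiSC, against 80.4 and 74.5 CPM in TSC. With 1 EpiSC count in all, the log2 fold change was -11.21 (adjusted p = 2.97e-21). Elf5, an ETS factor that holds the trophoblast stem state, had 0 and 0.0512 CPM in EpiSC, against 177 and 185 CPM in TSC. Its log2 fold change was -12.43 (adjusted p = 4.24e-23). Eomes, a T-box factor of both trophoblast and primitive streak, separated the lines less, with 58.8 and 59.8 CPM in EpiSC, against 378 and 348 CPM in TSC (log2 fold change -2.61 ± 0.08, adjusted p = 6.96e-19). Tsix, the antisense gene named in the EpiSC genotype, had 0.642 and 0.409 CPM in EpiSC, against 0.418 and 0.539 CPM in TSC and was not called (adjusted p = 0.83). Its level was low in both lines, and it overlaps Xist on the other strand, so it does not check the genotype label. In these bulk samples, fewer cells of a type and less RNA per cell cannot be told apart.

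**Figure D1:**
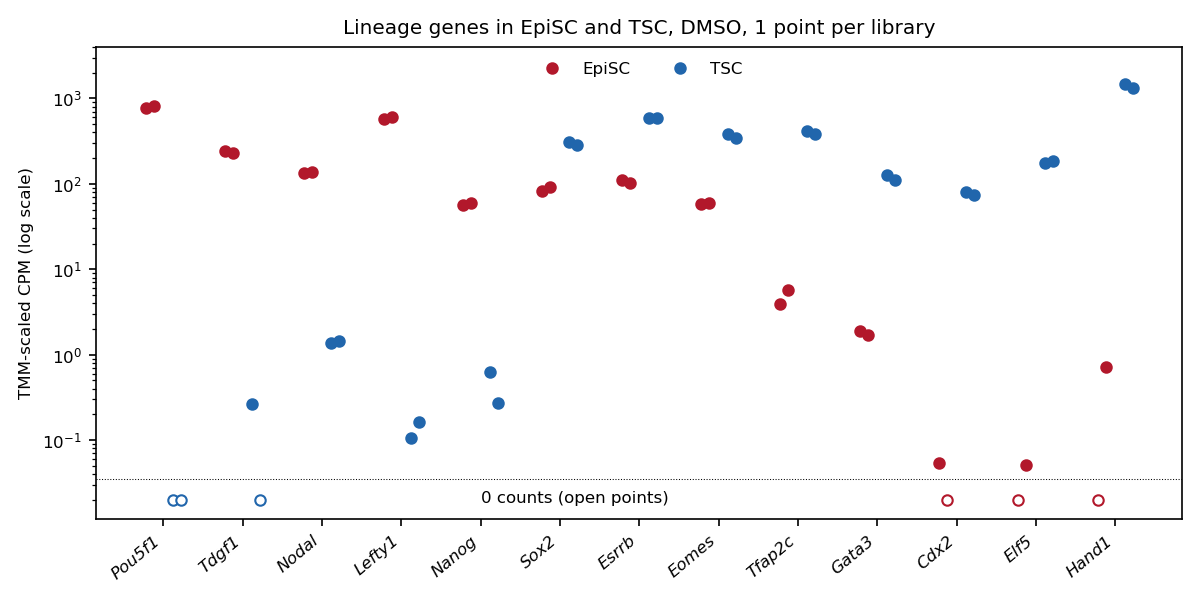
Level of 13 lineage genes in each library (TMM-scaled CPM, log axis; EpiSC left in red and TSC right in blue for each gene, 2 libraries per line; open points below the dotted line are libraries with 0 counts). Pou5f1, Tdgf1, Nodal, Lefty1 and Nanog lie higher in both EpiSC libraries, and the genes from Sox2 rightward lie higher in both TSC libraries.

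Short regulatory RNAs gave a first view of the contrast, in which clusters of the same family of stem cell microRNAs on different chromosomes differed in opposite directions. These microRNAs are known for promoting rapid cycling in pluripotent cells, and a microRNA recognises its targets mainly through its seed, bases 2 to 8. The mature sequences below are the 5 of these clusters in the table used that share the seed AAGUGCU, printed in capitals, taken from RefSeq (GRCm38.p6). The miR-291a, 294 and 295 sequences come from the Mir290 to Mir295 cluster on chromosome 7, and the miR-302 sequences from the Mir302 and Mir367 cluster on chromosome 3.
miR-291a-3p: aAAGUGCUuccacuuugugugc
miR-294-3p: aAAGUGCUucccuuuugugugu
miR-295-3p: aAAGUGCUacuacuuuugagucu
miR-302b-3p: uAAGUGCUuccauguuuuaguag
miR-302d-3p: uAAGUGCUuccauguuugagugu

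The 5 hairpin genes of the Mir302 and Mir367 cluster held 44 and 39 counts in EpiSC, against 0 and 0 in TSC. The 9 hairpin genes of the Mir290 to Mir295 cluster held 108 and 150 counts in EpiSC, against 742 and 871 in TSC. The lines did not overlap for either cluster, and the clusters differed in opposite directions. With STM2457 the counts were 40 and 63 in EpiSC against 0 and 0 in TSC for the Mir302 cluster, and 168 and 168 in EpiSC against 895 and 937 in TSC for the Mir290 cluster. In a total RNA library such counts come from precursor or host transcripts, not from the mature microRNAs, and the summed counts were not tested.

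Most genes differed between the lines. By edgeR's two-sided quasi-likelihood test, with a Benjamini-Hochberg adjusted p under 0.05 counted as a call, 75.4% of tested genes were called. In EpiSC 5950 genes were higher (38.3%) and 5754 were lower (37.1%). The calls of each gene list below are to be read against these shares. Scaled to ribosomal protein genes, the split was 7701 higher and 4085 lower. That scaling shifted the median log2 fold change of all genes by 0.28, so changes below are relative to the TMM scaling, and small differences depend on it. Ribosomal protein genes took 6.82% and 6.84% of counts in EpiSC, against 7.93% and 8.40% in TSC. Because a call was so common, a second rule asked for a call and at least a 4-fold difference, which 1762 genes higher in EpiSC met (11.3%) and 1517 lower in EpiSC (9.77%). The DMSO libraries held 18640099 and 19331505 counts in EpiSC and 19250528 and 18782253 in TSC, with 20401 to 21369 genes detected.

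The STM2457 arm gave the same line contrast in 4 other libraries. There 79.2% of 15567 tested genes were called. Of the 3102 genes called at least 4-fold apart in DMSO and tested in both arms, 3082 were called in the same direction with STM2457 and 0 in the opposite direction. Among all genes called in both arms, 10519 had the same direction and 41 did not.

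The genes most specific to EpiSC included channels, receptors and neural genes as well as Pou5f1 and Lefty1. Slc7a3, a cationic amino acid transporter, had 471 and 496 CPM in EpiSC, against 0.157 and 0 CPM in TSC. Its log2 fold change was 12.45 (adjusted p = 1.22e-23). Armcx2, an armadillo-repeat gene on the X chromosome, had 386 and 342 CPM in EpiSC, against 0.105 and 0.0539 CPM in TSC. Stmn2, a neuronal microtubule regulator, had 212 and 214 CPM in EpiSC, against 0 and 0.0539 CPM in TSC, so the TSC libraries held 1 read of it in all. The other genes among the 15 largest differences, leaving out pseudogenes and predicted genes, were Gria3, a glutamate receptor subunit, Etv1, an ETS factor, Kcnj3, a potassium channel, Trh, a hypothalamic peptide precursor, Heph, Klhl4, Lpar4, Car14, Map7d3 and Gpr37. Each of these last 10 had 0 counts in TSC, and Gpr37 had the smallest difference of them.

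At the TSC end stood genes with 0 counts in EpiSC. Tex13b, an X-linked gene known from germ cells, had 0 and 0 CPM in EpiSC, against 72.3 and 72.3 CPM in TSC. A floor of 3 counts over the EpiSC libraries was 0.0784 CPM. Triml2, a tripartite-motif gene, had 0 and 0 CPM in EpiSC, against 65.04 and 68.6 CPM in TSC. Atp2c2, a secretory-pathway calcium pump, Cdyl2, Irx1, Fam83f, Hsd17b2, Adck1, Gstm5 and Thbd, the thrombomodulin of the giant cell surface, also had 0 EpiSC counts. Hand1, a factor of trophoblast giant cells, was the most abundant of the 15 largest differences on the TSC side, with 0 and 0.716 CPM in EpiSC, against 1469 and 1339.6 CPM in TSC (log2 fold change -11.88 ± 0.28, adjusted p = 7.72e-11). Its EpiSC counts all lay in 1 library.

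The most abundant genes at least 4-fold apart included actin-binding proteins on both sides. Flna, the X-linked actin cross-linker filamin A, had 2075 and 1879 CPM in EpiSC, against 107 and 96.7 CPM in TSC (log2 fold change 4.28 ± 0.09, adjusted p = 2.36e-21). Tagln, an actin-bundling protein of contractile cells, had 526 and 505 CPM in EpiSC, against 0.366 and 0.269 CPM in TSC (log2 fold change 10.63 ± 0.15, adjusted p = 2.41e-24). Tpm1 tropomyosin averaged 948 CPM in EpiSC and 169 CPM in TSC, Tuba1a tubulin 629 CPM in EpiSC and 55.2 CPM in TSC, and the GTPase regulator Arhgap21 848 CPM in EpiSC and 87.3 CPM in TSC. Cdc42se1 had 745 CPM in EpiSC and 128 CPM in TSC and the X-linked Maged1 609 CPM in EpiSC and 116 CPM in TSC. Igfbp2, a binding protein for insulin-like growth factors, had 581 and 549.7 CPM in EpiSC, against 5.18 and 5.76 CPM in TSC (log2 fold change 6.69 ± 0.11, adjusted p = 1.44e-23). All of these genes were called higher in EpiSC. On the TSC side the most abundant were H19 and Rhox5, described below, then Ezr, Hand1, Klhl13, Lasp1, Morc4, Sin3b, Pxn and Esrrb. Ezr, the microvillus linker ezrin, had 279 and 256 CPM in EpiSC, against 1456 and 1462 CPM in TSC (log2 fold change -2.45 ± 0.08, adjusted p = 5.31e-18). Klhl13, an X-linked ubiquitin ligase adaptor, had 20.1 and 16.6 CPM in EpiSC, against 1285 and 1307 CPM in TSC (log2 fold change -6.14 ± 0.10, adjusted p = 3.11e-23). Morc4, also X-linked, averaged 51.8 CPM in EpiSC and 1131 CPM in TSC, and the focal adhesion protein Pxn 43.7 CPM in EpiSC and 630.01 CPM in TSC. Lasp1, another actin-binding protein, averaged 281 CPM in EpiSC and 1182 CPM in TSC and the corepressor subunit Sin3b 135 CPM in EpiSC and 687 CPM in TSC.

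**Figure D2:**
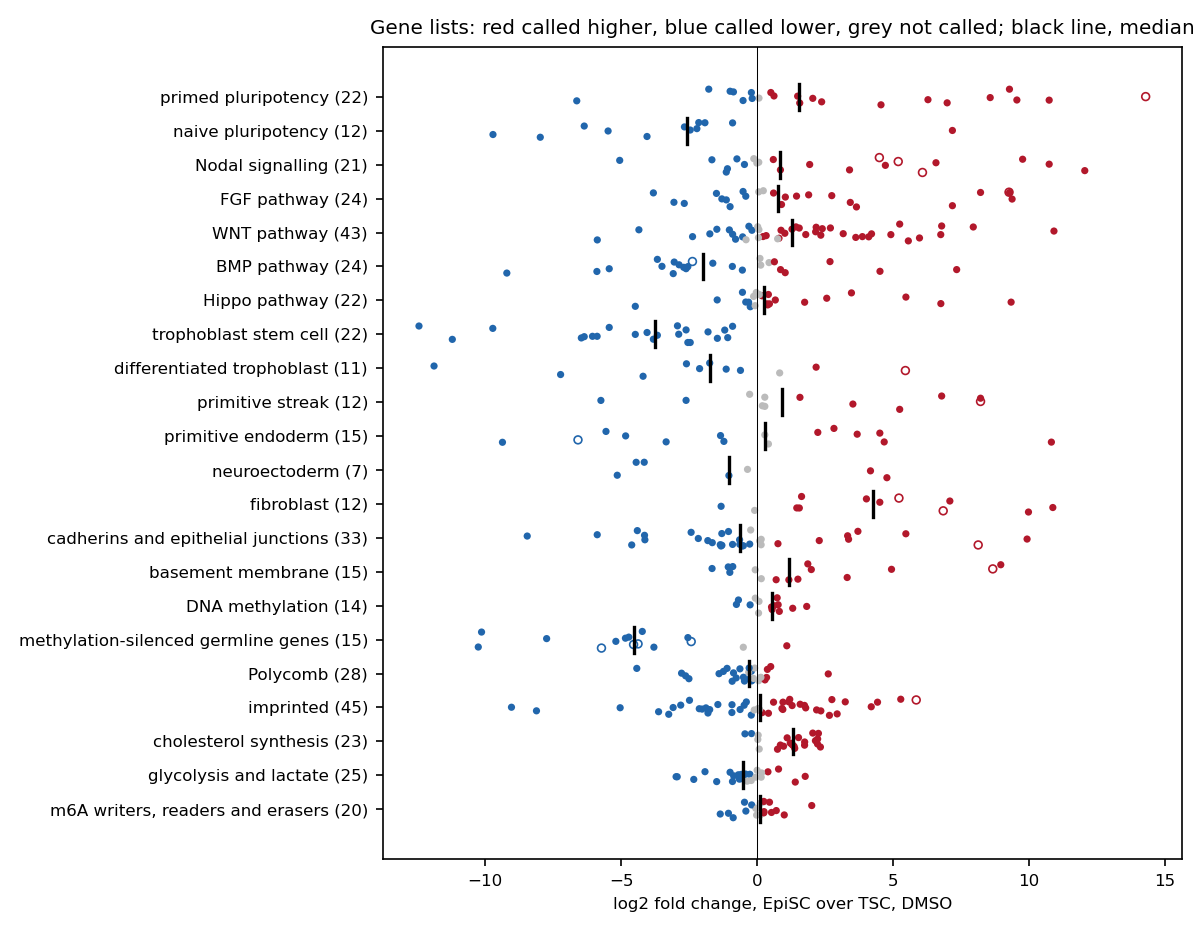
Log2 fold change of each tested member of 22 gene lists (x axis, EpiSC over TSC, DMSO), with the number of tested members in brackets. Red points were called higher in EpiSC, blue called lower and grey not called. Open points are genes with 0 counts in 1 line, and their distance from 0 is not exact. They were placed with the summed size of all 4 libraries in place of that of the TSC libraries, so they lie too far right. Black lines are medians drawn with those points. The medians in the text, -2.09 for BMP and -5.20 for germline genes, hold instead of the drawn -2.01 and -4.54. Trophoblast stem cell genes lie wholly to the left, with a median of -3.74, and primed pluripotency genes spread over both sides, with a median of 1.53.

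Primed pluripotency genes were mostly higher in EpiSC, but several were not. Of these, 14 of the 22 tested members were called higher in EpiSC and 7 lower, with a median log2 fold change of 1.53, against 0.02 over all tested genes. Nanog, a core homeobox factor, had 56.04 and 59.8 CPM in EpiSC, against 0.627 and 0.269 CPM in TSC (log2 fold change 6.98 ± 0.18, adjusted p = 6.80e-20). Tdgf1, the Nodal co-receptor Cripto, had 244 and 231 CPM in EpiSC, against 0.261 and 0 CPM in TSC (log2 fold change 10.74 ± 0.20, adjusted p = 1.26e-22). Otx2, a homeobox factor of the post-implantation epiblast, had 41.9 and 47.4 CPM in EpiSC, against 0.105 and 0 CPM in TSC. Its log2 fold change was 9.55 (adjusted p = 4.38e-19). These genes were near 0 in TSC, as was Foxd3, a forkhead factor, with 62.9 CPM in EpiSC and 0.162 CPM in TSC. Lin28b, a block to let-7 processing, averaged 122 CPM in EpiSC and 1.56 CPM in TSC, and L1td1, an RNA-binding protein of pluripotent cells, 449.9 CPM in EpiSC and 87.02 CPM in TSC.

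The members called lower included genes of the pluripotency network that TSC also use. Sox2, the partner of POU5F1, had 82.9 and 90.7 CPM in EpiSC, against 308 and 288 CPM in TSC (log2 fold change -1.78 ± 0.08, adjusted p = 7.98e-16). Pou3f1, another POU factor, had 126 and 136 CPM in EpiSC, against 267 and 255 CPM in TSC (log2 fold change -0.99 ± 0.07, adjusted p = 2.17e-11). Utf1, a chromatin protein of undifferentiated cells, averaged 308 CPM in EpiSC and 564 CPM in TSC (log2 fold change -0.87 ± 0.07, adjusted p = 2.66e-10). Dppa4, a nuclear protein of pluripotent cells, was the furthest apart, with 1.18 and 1.43 CPM in EpiSC, against 127 and 134 CPM in TSC (log2 fold change -6.63 ± 0.13, adjusted p = 3.92e-22). Dnmt3b, a de novo DNA methyltransferase, was not called, with 239 and 239.7 CPM in EpiSC, against 237 and 220.2 CPM in TSC (adjusted p = 0.41).

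Genes of the naive, pre-implantation state were lower in EpiSC: 1 of the 12 tested members was called higher in EpiSC and 11 lower, with a median of -2.57. Zfp42, the classic naive marker Rex1, had 0.1604 and 0.153 CPM in EpiSC, against 136 and 138 CPM in TSC (log2 fold change -9.71 ± 0.17, adjusted p = 8.49e-23). Pecam1, a surface molecule of naive cells and endothelium, had 0.428 and 0.716 CPM in EpiSC, against 150.2 and 142 CPM in TSC (log2 fold change -7.97 ± 0.15, adjusted p = 1.81e-22). Klf2 averaged 2.29 CPM in EpiSC and 103 CPM in TSC. Esrrb, an orphan nuclear receptor that serves naive cells and TSC alike, had 112 and 101 CPM in EpiSC, against 588 and 586 CPM in TSC (log2 fold change -2.46 ± 0.08, adjusted p = 2.94e-18). The 1 member higher in EpiSC was Fgf4, the ligand that trophoblast receives from the epiblast. Fgf4 had 8.77 and 8.49 CPM in EpiSC, against 0 and 0.108 CPM in TSC (log2 fold change 7.18, adjusted p = 5.30e-13). TSC receive FGF4 from their medium.

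The trophoblast stem cell list ran in 1 direction. None of the 22 tested members was higher in EpiSC and all 22 were called lower, 17 of them at least 4-fold, with a median of -3.74. Pou2f3, the remaining gene of the list, was too low to test. The summed level of the list was 425 and 411 CPM in EpiSC, against 4049 and 3827 CPM in TSC. Tfap2c, the AP-2 factor of trophoblast, had 3.903 and 5.73 CPM in EpiSC, against 415 and 379 CPM in TSC (log2 fold change -6.36 ± 0.12, adjusted p = 1.62e-22). Gata3 had 1.87 and 1.69 CPM in EpiSC, against 126 and 111 CPM in TSC (log2 fold change -6.05 ± 0.13, adjusted p = 1.98e-21), and Gata2 averaged 0.579 CPM in EpiSC and 34.4 CPM in TSC; both are zinc finger factors of the trophectoderm. Tead4, the DNA-binding partner of YAP in trophectoderm, had 5.19 and 4.39997 CPM in EpiSC, against 112 and 102 CPM in TSC (log2 fold change -4.48 ± 0.11, adjusted p = 2.45e-20). Duox2, an oxidase, averaged 0.184 CPM in EpiSC and 159.9 CPM in TSC, and Tinagl1, a matrix protein, 29.6 CPM in EpiSC and 490.1 CPM in TSC. Ets2, a factor that responds to FGF, averaged 37.7 CPM in EpiSC and 279 CPM in TSC. Surface proteins of trophoblast moved the same way: of 8 tested, 6 were lower and 1 higher. Plet1 had 2.03 and 1.84 CPM in EpiSC, against 298 and 296 CPM in TSC (log2 fold change -7.26 ± 0.12, adjusted p = 1.51e-23). Cdcp1 had 0 and 0.102 CPM in EpiSC, against 117 and 112 CPM in TSC and Itga7, a laminin receptor, averaged 5.32 CPM in EpiSC and 174 CPM in TSC.

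Markers of other cell types were measured beside these genes. Of 30 markers of differentiated trophoblast only 11 had enough counts for a test, of which 8 were lower and 2 higher in EpiSC, and the prolactin-family, Tpbpa and syncytin genes fell short of the filter in both lines. That list summed to 58.5 and 56.4 CPM in EpiSC, against 1893 and 1748 CPM in TSC, most of it Hand1. Pcdh12, a protocadherin of glycogen cells, averaged 0.288 CPM in EpiSC and 5.38 CPM in TSC. In EpiSC Cited1 averaged 8.01 CPM, against 1.78 CPM in TSC, and Gcm1, a labyrinth factor, 1.73 CPM against 0 CPM in TSC, both called higher.

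Fibroblast markers were higher in EpiSC. A total of 10 of the 12 tested members were called higher in EpiSC and 1 lower, with a median of 4.26, and the list summed to 312 and 290.2 CPM in EpiSC, against 46.6 and 49.1 CPM in TSC. Acta2, smooth muscle actin, had 68.3 and 55.6 CPM in EpiSC, against 0.0523 and 0 CPM in TSC. Its log2 fold change was 10.87 (adjusted p = 6.93e-20). Col5a2 had 60.7 and 59.2 CPM in EpiSC, against 0.0523 and 0.0539 CPM in TSC, and Col1a1 had 31.8 and 26.8 CPM in EpiSC, against 1.88 and 1.72 CPM in TSC (log2 fold change 4.02 ± 0.17, adjusted p = 4.43e-16). Col1a2 averaged 18.9 CPM in EpiSC and 0.131 CPM in TSC and Twist1, a mesenchymal factor, 29.7 CPM in EpiSC and 1.301 CPM in TSC. Of the 5 members too low to test, Lum and S100a4 had 0 counts in all 4 libraries, Fap had 0 counts in both EpiSC libraries, and Dcn had 0.107 and 0.153 CPM in EpiSC, against 0 and 0 CPM in TSC. Pdgfrb was lower in EpiSC, with 5.04 CPM in EpiSC and 12.7 CPM in TSC. The part of these cell type markers in the other differences was not tested.

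Primitive streak, neural and primitive endoderm markers split, as did all tested genes (38.3% higher and 37.1% lower). Of the streak list, 6 of 12 tested genes were higher and 2 lower. T, the mesoderm factor Brachyury, had 47.4 and 43.4 CPM in EpiSC, against 3.92 and 3.99 CPM in TSC (log2 fold change 3.52 ± 0.13, adjusted p = 2.13e-17). Wnt3, the ligand that starts the streak, had 64.6 and 71.2 CPM in EpiSC, against 0.732 and 0.485 CPM in TSC (log2 fold change 6.78 ± 0.17, adjusted p = 1.66e-20). Fgf8 averaged 17.7 CPM in EpiSC and 0.0531 CPM in TSC. Nkx1-2, a factor of caudal progenitors, was called higher in EpiSC (adjusted p = 2.11e-14). Among 7 tested neuroectoderm genes 2 were higher and 4 lower: Nes, the intermediate filament nestin, had 360.3 and 323 CPM in EpiSC, against 19.4 and 18.6 CPM in TSC (log2 fold change 4.17 ± 0.09, adjusted p = 1.96e-21) and Sox1 averaged 3.796 CPM in EpiSC and 0.135 CPM in TSC, whereas Irx3 averaged 4.37 CPM in EpiSC and 77.8 CPM in TSC and Pax3 0.133 CPM in EpiSC and 4.85 CPM in TSC. Of 15 tested primitive endoderm genes 6 were higher and 7 lower, 6 and 5 of them at least 4-fold. That list summed to 956 and 871 CPM in EpiSC, against 2060 and 2221 CPM in TSC. Lrp2, the endocytic receptor megalin, had 216 and 191 CPM in EpiSC, against 0.209 and 0 CPM in TSC (log2 fold change 10.82 ± 0.21, adjusted p = 2.80e-22). Apoe averaged 286 CPM in EpiSC and 40.4 CPM in TSC, Dab2 11.6 CPM in EpiSC and 0.502 CPM in TSC, Serpinh1 399 CPM in EpiSC and 85.1 CPM in TSC and the endoderm factor Sox17 1.43 CPM in EpiSC and 0.106 CPM in TSC. Furthest down in EpiSC was Thbd, named above, with 0 EpiSC counts and a log2 fold change of -11.17. Gata4, a defining endoderm factor, averaged 0.494 CPM in EpiSC and 23.7 CPM in TSC, while the endoderm products Ttr, Afp and Apoa1 fell below the filter in both lines.

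In Nodal signalling the ligand, the co-receptor and the secreted inhibitors were each at least 4-fold higher in EpiSC, while no receptor or SMAD was 4-fold apart. Of the whole list, 12 of the 21 tested members were called higher in EpiSC and 6 lower, with a median of 0.86. The shares over all tested genes were 38.3% and 37.1%. Lefty2, the second Lefty inhibitor, had 198 and 181 CPM in EpiSC, against 0.157 and 0.269 CPM in TSC (log2 fold change 9.76 ± 0.17, adjusted p = 4.67e-23). Foxh1, the nuclear partner of SMAD2, averaged 64.5 CPM in EpiSC and 16.9 CPM in TSC (log2 fold change 1.93 ± 0.09, adjusted p = 4.03e-15). Pmepa1, a target that dampens the pathway, had 109.6 and 112 CPM in EpiSC, against 10.1 and 10.9 CPM in TSC (log2 fold change 3.396 ± 0.09, adjusted p = 1.59e-19). EpiSC medium contains Activin A, which signals through the same receptors. The largest fall in EpiSC was of Pcsk6, the convertase that cleaves pro-Nodal and is known from extraembryonic tissue, with 4.49 and 3.38 CPM in EpiSC, against 133 and 128 CPM in TSC (log2 fold change -5.05 ± 0.12, adjusted p = 5.12e-21). The type I receptor Acvr1b averaged 44.5 CPM in EpiSC and 97.9 CPM in TSC, the signal transducer Smad3 46.9 CPM in EpiSC and 100.1 CPM in TSC, and the inhibitory Smad7 28.3 CPM in EpiSC and 89.8 CPM in TSC; these 3 were called lower.

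BMP genes were mostly lower in EpiSC. In that list 6 of the 24 tested members were called higher in EpiSC and 15 lower, with a median of -2.09. Bmp4, the ligand by which extraembryonic ectoderm patterns the epiblast, had 5.99 and 5.78 CPM in EpiSC, against 262 and 249 CPM in TSC (log2 fold change -5.44 ± 0.10, adjusted p = 1.05e-22). Bmp8b, a ligand known from the same tissue, had 0.428 and 0.409 CPM in EpiSC, against 263 and 239 CPM in TSC (log2 fold change -9.204 ± 0.15, adjusted p = 1.81e-23). Gdf6 averaged 1.15 CPM in EpiSC and 68.7 CPM in TSC. The target genes Id1, Id2 and Id3 were also lower, at log2 fold changes of -2.87 ± 0.12, -3.67 ± 0.09 and -1.63 ± 0.13, as was the feedback inhibitor Smad6 at -3.05 ± 0.10. Higher in EpiSC were the pseudoreceptor Bambi (68.8 CPM in EpiSC and 10.8 CPM in TSC) and the receptor Bmpr1b (5.34 CPM in EpiSC and 0.0261 CPM in TSC).

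The FGF receptors differed in opposite directions. Over all, 13 of the 24 tested members were called higher in EpiSC and 9 lower, with a median of 0.75. Among all tested genes the shares were 38.3% and 37.1%. Fgf5, the epiblast ligand, had 45.99 and 60.7 CPM in EpiSC, against 0 and 0.162 CPM in TSC. Its log2 fold change was 9.28 (adjusted p = 1.57e-14). Fgf15 averaged 21.9 CPM in EpiSC and 0.0269 CPM in TSC, and the X-linked Fgf13 24.2 CPM in EpiSC and 0 CPM in TSC. Fgfr1 had 236 and 242 CPM in EpiSC, against 69.6 and 59.2 CPM in TSC (log2 fold change 1.89 ± 0.08, adjusted p = 7.69e-16), whereas Fgfr2, the trophoblast receptor for FGF4, had 15.3 and 15.6 CPM in EpiSC, against 228 and 207 CPM in TSC (log2 fold change -3.82 ± 0.09, adjusted p = 8.07e-21). Per kb of annotated exon, Fgfr1 had 24.2 ± 0.412 CPM per kb in EpiSC and 6.52 ± 0.751 in TSC, and Fgfr2 had 1.496 ± 0.0213 CPM per kb in EpiSC and 21.1 ± 1.44 in TSC, so a different receptor led in each line; Fgfr3 had 0.139 ± 0.02501 CPM per kb in EpiSC and 1.17 ± 0.172 in TSC and Fgfr4 had 0.295 ± 0.00922 CPM per kb in EpiSC and 1.902 ± 0.0232 in TSC. Feedback genes did not share a direction. Dusp6, a phosphatase that acts on ERK, averaged 294 CPM in EpiSC and 43.98 CPM in TSC and was higher in EpiSC, while Spry4 averaged 40.4 CPM in EpiSC and 99.3 CPM in TSC and was lower.

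In the WNT list 27 of the 43 tested members were called higher in EpiSC and 11 lower, with a median of 1.28. Over all tested genes the shares were 38.3% and 37.1%. Wnt8a, a ligand of the early streak, had 158 and 172 CPM in EpiSC, against 0.732 and 0.593 CPM in TSC (log2 fold change 7.94 ± 0.15, adjusted p = 1.12e-22). Lef1, a nuclear effector, had 65.1 and 62.5 CPM in EpiSC, against 0.0523 and 0 CPM in TSC, while its relative Tcf7 ran the other way, with 83.3 and 84.9 CPM in EpiSC, against 297 and 265 CPM in TSC (log2 fold change -1.74 ± 0.08, adjusted p = 1.45e-15). Among receptors Fzd2 averaged 60.3 CPM in EpiSC and 1.27 CPM in TSC and Lgr4, which binds R-spondins, 101 CPM in EpiSC and 20.03 CPM in TSC. Wnt7b, a ligand of the chorion, was the member furthest down in EpiSC, with 7.49 and 5.58 CPM in EpiSC, against 401 and 366 CPM in TSC (log2 fold change -5.88 ± 0.11, adjusted p = 1.81e-22).

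Hippo genes included known YAP targets that were higher in EpiSC and TEAD factors that were lower. In total, 12 of the 22 tested members were called higher in EpiSC and 6 lower, or 14 and 3 when scaled to ribosomal protein genes. The TMM shares over all tested genes were 38.3% and 37.1%. Ccn1, a matricellular protein and YAP target, had 440.2 and 494 CPM in EpiSC, against 4.44 and 4.202 CPM in TSC (log2 fold change 6.75 ± 0.11, adjusted p = 1.93e-23). Ccn2, another such target, had 100.4 and 114 CPM in EpiSC, against 0.261 and 0.0539 CPM in TSC (log2 fold change 9.34 ± 0.20, adjusted p = 2.23e-21). Ajuba averaged 183 CPM in EpiSC and 16.5 CPM in TSC, Amotl2 229 CPM in EpiSC and 38.8 CPM in TSC and Amot, an X-linked angiomotin, 123 CPM in EpiSC and 36.7 CPM in TSC; all were higher. Per kb of exon Tead2 had 53.7 ± 4.99 CPM per kb in EpiSC and 47.3 ± 0.131 in TSC and was the highest TEAD gene in both lines. Tead4 had 1.33 ± 0.155 CPM per kb in EpiSC and 29.7 ± 2.06 in TSC, Tead3 had 4.83 ± 0.261 CPM per kb in EpiSC and 13.4 ± 1.96 in TSC and Tead1 had 11.4 ± 0.164 CPM per kb in EpiSC and 8.89 ± 0.923 in TSC. Tead3 and Tead4 were called lower, whereas the higher calls of Tead1 and Tead2 did not hold in a fit of all 14 libraries (adjusted p = 0.058 and 0.54), and that of Tead2 was also lost without EpiSC replicate 1, without TSC replicate 1 and without TSC replicate 2.

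Cell adhesion genes were more often called lower than higher, but not at 4-fold. In the junction list 8 of the 33 tested members were called higher in EpiSC and 21 lower, against 38.3% and 37.1% of all tested genes. At least 4-fold apart were 7 higher and 8 lower, so the imbalance lay in smaller differences. Vim, the mesenchymal intermediate filament vimentin, had 501 and 491 CPM in EpiSC, against 0.523 and 0.485 CPM in TSC (log2 fold change 9.92 ± 0.14, adjusted p = 2.41e-24). Cdh2, N-cadherin, had 89.4 and 89.5 CPM in EpiSC, against 1.36 and 2.69 CPM in TSC (log2 fold change 5.47 ± 0.15, adjusted p = 8.99e-20). Zeb2, a repressor of epithelial genes, was called higher in EpiSC (adjusted p = 3.50e-14), and its relative Zeb1 averaged 18.1 CPM in EpiSC and 1.75 CPM in TSC. The tight junction gene Ocln also was higher, with 18.8 CPM in EpiSC and 1.44 CPM in TSC. Cdh1, E-cadherin, was abundant in both lines and lower in EpiSC, with 501 and 476 CPM in EpiSC, against 1264 and 1238 CPM in TSC (log2 fold change -1.36 ± 0.08, adjusted p = 1.46e-13). Cdh3, P-cadherin, had 12.6 and 10.3 CPM in EpiSC, against 205 and 199.7 CPM in TSC (log2 fold change -4.14 ± 0.10, adjusted p = 7.10e-21). Cldn3 averaged 6.35 CPM in EpiSC and 156 CPM in TSC, Cldn7 46.7 CPM in EpiSC and 209 CPM in TSC, Krt7, a keratin of trophoblast, 0.936 CPM in EpiSC and 55.8 CPM in TSC, and Cdh5, known from endothelium, 0.0523 CPM in EpiSC and 20.6 CPM in TSC. The repressor Snai1 was lower in EpiSC, unlike Zeb1 and Zeb2, with 3.42 and 1.64 CPM in EpiSC, against 57.1 and 49.7 CPM in TSC (log2 fold change -4.41 ± 0.18, adjusted p = 2.13e-13).

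The basement membrane list had 9 genes higher and 4 lower of 15 tested, against 38.3% and 37.1% of all tested genes. Fn1, fibronectin, had 503 and 480.3 CPM in EpiSC, against 16.5 and 15.6 CPM in TSC (log2 fold change 4.94 ± 0.09, adjusted p = 1.12e-22). Nid2 and Nid1, both nidogens, went opposite ways: Nid2 averaged 352 CPM in EpiSC and 35.5 CPM in TSC, and Nid1 42.3 CPM in EpiSC and 134 CPM in TSC. The X-linked collagens Col4a5 (42.8 CPM in EpiSC and 0.0784 CPM in TSC) and Col4a6 (15.98 CPM in EpiSC and 0 CPM in TSC) were higher, whereas the autosomal Col4a2 was lower (60.9 CPM in EpiSC and 127 CPM in TSC). Laminin Lamb1 averaged 346 CPM in EpiSC and 86.995 CPM in TSC and was higher.

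**Figure D3:**
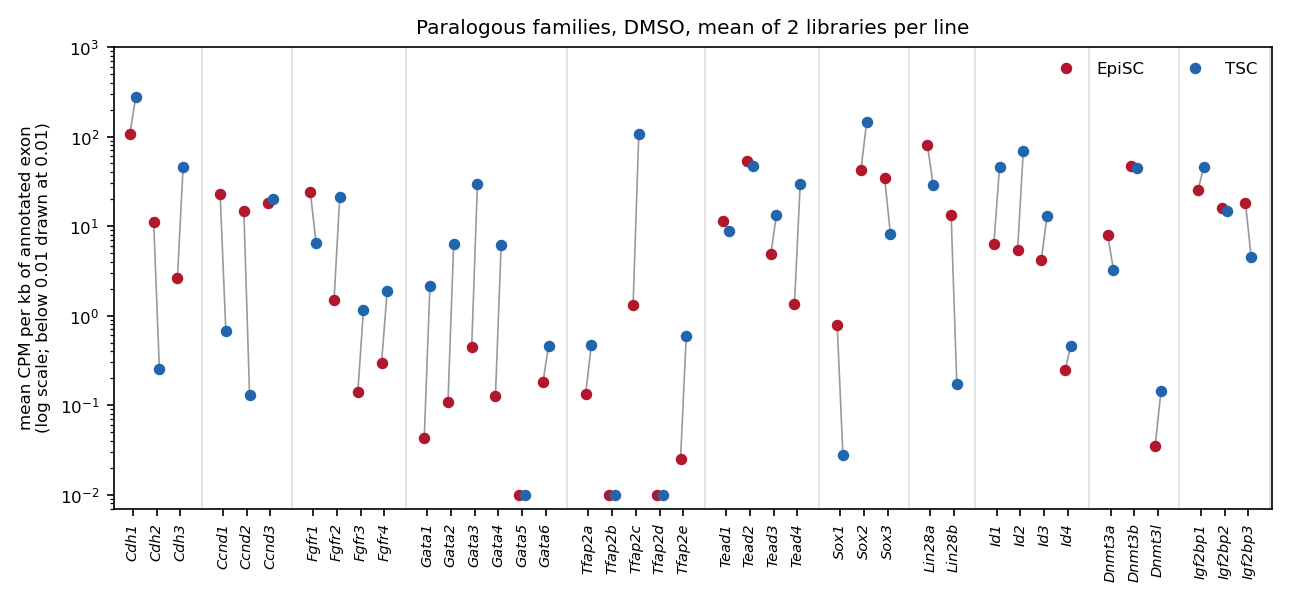
Mean level of members of 11 gene families (CPM per kb of annotated exon, log axis; red EpiSC to the left of blue TSC for each gene, mean of 2 libraries; values below 0.01 drawn at 0.01). In EpiSC Ccnd1 and Ccnd2 stand beside Ccnd3, whereas in TSC Ccnd3 stands above both, and Fgfr1 and Fgfr2 change places between the lines.

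Several families of close relatives were divided between the lines. Of the D cyclins, which start the cell cycle, Ccnd1 had 23.1 ± 1.02 CPM per kb in EpiSC and 0.668 ± 0.233 in TSC and Ccnd2 had 14.7 ± 1.76 CPM per kb in EpiSC and 0.1297 ± 0.00275 in TSC. Ccnd3 had 18.2 ± 0.482 CPM per kb in EpiSC and 19.9 ± 0.0346 in TSC and was not called (adjusted p = 0.091), though it was called lower in a fit of 8 libraries (adjusted p = 0.029). In TSC Ccnd3 was thus the leading D cyclin, while in EpiSC all 3 were within the same order of magnitude. Over the whole list of G1 regulators 10 were higher and 10 lower of 22 tested, or 10 and 6 when scaled to ribosomal protein genes. With TMM scaling 38.3% of all tested genes were higher and 37.1% lower. The D-cyclin partner Cdk6 averaged 35.8 CPM in EpiSC and 1.699 CPM in TSC, Cdk4 608 CPM in EpiSC and 244 CPM in TSC and the inhibitor Cdkn1a 295 CPM in EpiSC and 99.8 CPM in TSC, all higher, while the inhibitor Cdkn2a averaged 6.69 CPM in EpiSC and 45.2 CPM in TSC and was lower. Lin28a had 80.8 ± 2.57 CPM per kb in EpiSC and 28.8 ± 1.13 in TSC, and Lin28b had 13.5 ± 0.0693 CPM per kb in EpiSC and 0.172 ± 0.075 in TSC.

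Sox genes were called in both directions. In this family, 8 of the 15 tested members were called higher in EpiSC and 4 lower, a share called close to the 75.4% of all tested genes. Sox11, a neural and mesenchymal factor, had 74.2 and 67.8 CPM in EpiSC, against 0.627 and 0.7004 CPM in TSC (log2 fold change 6.73 ± 0.16, adjusted p = 8.41e-21), and Sox4 averaged 111 CPM in EpiSC and 8.17 CPM in TSC. Sox21 had 1.497 and 2.15 CPM in EpiSC, against 165 and 159 CPM in TSC (log2 fold change -6.46 ± 0.13, adjusted p = 3.32e-22) and Sox15, a partner of HAND1 in giant cells, averaged 2.76 CPM in EpiSC and 51.4 CPM in TSC. Within the B1 group, Sox2 had 42.2 ± 2.69 CPM per kb in EpiSC and 145 ± 6.88 in TSC and the X-linked Sox3 had 34.1 ± 1.26 CPM per kb in EpiSC and 8.25 ± 0.715 in TSC. Sox2 led in both lines, with Sox3 close behind it in EpiSC.

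DNA methylation enzymes were all within 4-fold. Among them 8 of the 14 tested members were called higher in EpiSC and 3 lower, against 38.3% and 37.1% of all tested genes. The share called was near the 75.4% of all tested genes. Hells, a remodeller needed for methylation, had 232 and 252 CPM in EpiSC, against 65.4 and 71.5 CPM in TSC (log2 fold change 1.82 ± 0.08, adjusted p = 7.21e-16). Dnmt3a averaged 132 CPM in EpiSC and 53.5 CPM in TSC and the dioxygenase Tet1 55.3 CPM in EpiSC and 31.4 CPM in TSC. Germline genes known to be silenced by promoter methylation in the epiblast stood further apart. Only 1 of the 15 tested members was called higher in EpiSC and 13 lower, with a median of -5.20. Of the 26 listed genes 11 were too low to test. Tex19.1, a germ cell and placental gene, had 0.0535 and 0.256 CPM in EpiSC, against 178 and 189.6 CPM in TSC (log2 fold change -10.13 ± 0.18, adjusted p = 9.88e-23). Syce1, a synaptonemal complex gene, had 0 and 0.0512 CPM in EpiSC, against 35.9 and 44.02 CPM in TSC. Its log2 fold change was -10.25 (adjusted p = 1.46e-18). Tex15 averaged 4.33 CPM in EpiSC and 114 CPM in TSC and the X-linked Taf7l 0.0512 CPM in EpiSC and 12.6 CPM in TSC. Mov10l1, Stk31 and Tdrd1, all known from the piRNA pathway or male germ cells, had 0 counts in EpiSC and averaged 8.35, 3.29 and 3.68 CPM in TSC. The exception was Tdrkh, at 35.98 CPM in EpiSC and 16.9 CPM in TSC. DNA methylation itself was not measured in these libraries.

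The promoters of these germline genes often held an E-box, CACGTG, the site of the MAX and MGA proteins that repress germline genes in embryonic cells. The 250 bases before the most upstream RefSeq start of each gene were read. There 12 of the 23 list members with a promoter in the table held it (52.2%). The share was 6.04% of all promoters and 8.45% of those of tested protein-coding genes. The E-box reads the same on both strands. Of the 11 members called lower that had a promoter, 6 held an E-box and 5 did not. Windows are shown, with the E-box in capitals, for the 3 tested members that had 0 counts in EpiSC and an E-box, chosen after the values were seen: Mov10l1 (chr15:88982744-88982993, plus strand), Stk31 (chr6:49395289-49395538, plus strand) and Tdrd1 (chr19:56825959-56826208, plus strand), all GRCm38.p6, from RefSeq.
Mov10l1: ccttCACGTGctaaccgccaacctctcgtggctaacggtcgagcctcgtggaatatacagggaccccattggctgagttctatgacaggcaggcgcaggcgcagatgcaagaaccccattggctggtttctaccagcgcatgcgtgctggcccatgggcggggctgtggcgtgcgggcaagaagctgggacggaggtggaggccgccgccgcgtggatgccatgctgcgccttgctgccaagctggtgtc
Stk31: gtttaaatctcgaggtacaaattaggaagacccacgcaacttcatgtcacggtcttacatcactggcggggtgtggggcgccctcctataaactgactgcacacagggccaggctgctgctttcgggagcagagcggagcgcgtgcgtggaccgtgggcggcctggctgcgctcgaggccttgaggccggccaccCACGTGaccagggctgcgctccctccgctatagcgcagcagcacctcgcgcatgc
Tdrd1: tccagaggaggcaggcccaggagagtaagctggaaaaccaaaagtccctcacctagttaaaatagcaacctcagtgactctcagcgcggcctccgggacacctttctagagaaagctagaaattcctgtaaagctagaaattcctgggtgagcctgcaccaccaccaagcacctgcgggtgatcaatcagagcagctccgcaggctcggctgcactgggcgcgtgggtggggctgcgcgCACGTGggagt

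The E-box began 246 bases before the start used in Mov10l1, 55 in Stk31 and 11 in Tdrd1, so its position was not shared. Stk31 has 2 annotated starts and Tdrd1 has 3, and distances from their other starts were not taken. A match describes the letters and does not show that a protein binds there.

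The Cdx2 promoter held an octamer, ATGCAAAT, the sequence that POU factors recognise, 147 bases before its start. On either strand this motif was found in 1.62% of all promoters, in 1.33% of those of tested protein-coding genes, in 1.27% of those of genes at least 4-fold higher in EpiSC and in 2.38% of those at least 4-fold lower. Of the trophoblast stem cell list 1 of 18 promoters held it, and of the primed pluripotency list 0 of 15. A match does not show binding, and an effect of POU5F1 on Cdx2 was not tested. The Cdx2 window (chr5:147307250-147307499, minus strand, GRCm38.p6, from RefSeq), chosen with the values of these data known, is given with the octamer in capitals.
Cdx2: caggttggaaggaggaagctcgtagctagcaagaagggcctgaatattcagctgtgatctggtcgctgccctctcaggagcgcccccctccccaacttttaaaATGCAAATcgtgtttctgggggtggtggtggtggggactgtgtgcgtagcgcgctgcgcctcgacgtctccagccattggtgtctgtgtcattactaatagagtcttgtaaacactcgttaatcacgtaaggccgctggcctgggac

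Imprinted genes, expressed from 1 parental copy, changed in both directions. Between the lines, 22 of the 45 tested members were called higher in EpiSC and 20 lower, with a median of 0.09. Among all tested genes 38.3% were higher and 37.1% lower. H19, a growth-restricting long RNA of the placenta, was the most abundant gene at least 4-fold lower, with 9.84 and 9.26 CPM in EpiSC, against 5054 and 4955 CPM in TSC (log2 fold change -9.03 ± 0.12, adjusted p = 2.41e-24). Igf2, the growth factor beside it, had 0.588 and 0.921 CPM in EpiSC, against 224 and 200.2 CPM in TSC (log2 fold change -8.11 ± 0.15, adjusted p = 8.55e-23). Phlda2, which limits placental growth, had 4.92 and 5.73 CPM in EpiSC, against 177 and 174 CPM in TSC (log2 fold change -5.04 ± 0.10, adjusted p = 7.67e-22). Sfmbt2 averaged 42.2 CPM in EpiSC and 521 CPM in TSC and Gab1 45.7 CPM in EpiSC and 435 CPM in TSC; both are known to be imprinted in extraembryonic tissue. Higher in EpiSC were the long RNAs Meg3, with 491 and 511 CPM in EpiSC, against 67.2 and 63.2 CPM in TSC (log2 fold change 2.94 ± 0.08, adjusted p = 8.99e-20), and Rian, with 510.03 CPM in EpiSC and 75.99 CPM in TSC, which share a locus. Zdbf2 averaged 53.8 CPM in EpiSC and 1.38 CPM in TSC, Snrpn 53.9 CPM in EpiSC and 5.71 CPM in TSC and Gnas 1116 CPM in EpiSC and 324 CPM in TSC. These are total counts, and the parental copies were not separated here.

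The X chromosome stood apart from all autosomes. Its 497 tested protein-coding genes had a median log2 fold change 1.23 above the autosomal median, with 75.3% called higher and 16.5% lower in EpiSC, against 38.3% and 39.1% of the 13003 autosomal genes. At least 4-fold higher were 36.0% of X-linked and 10.4% of autosomal genes. Of the 15 largest differences in each direction, 7 of those in favour of EpiSC and 3 of those in favour of TSC lay on the X, which held 3.68% of the tested protein-coding genes. By mean level, and without centring, the X-linked median was 2.96 for 27 genes under 1 CPM (autosomal 0.46) and 2.17 for 121 genes of 1 to 10 CPM (autosomal 0.06). It was 1.24 for 252 genes of 10 to 100 CPM (autosomal -0.02) and 0.74 for 97 genes over 100 CPM (autosomal -0.0008).

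**Figure D4:**
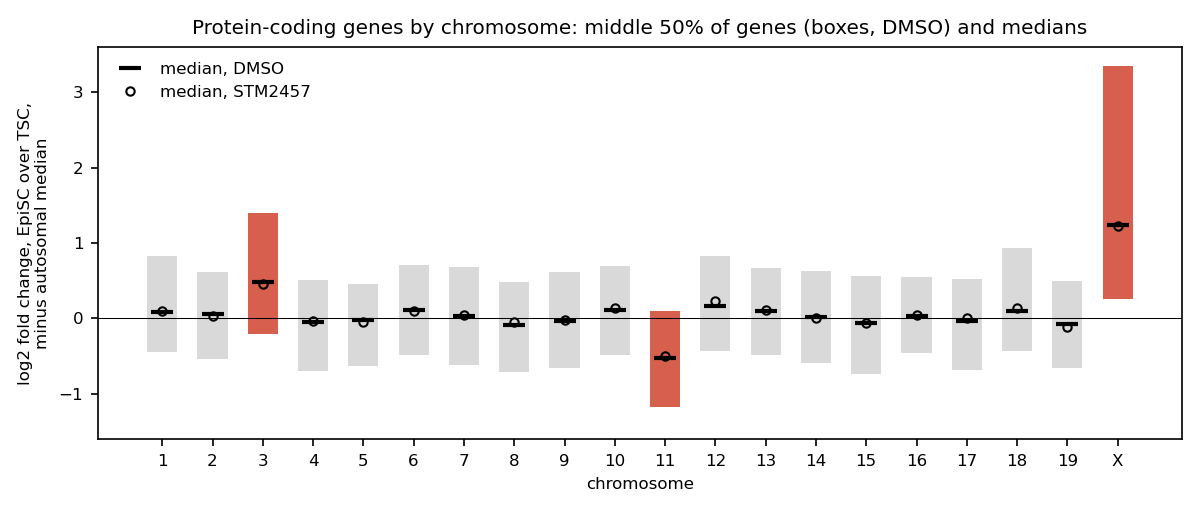
Log2 fold change of tested protein-coding genes by chromosome (y axis, EpiSC over TSC minus the autosomal median; boxes span the middle 50% of genes in DMSO, bars mark the DMSO median and circles the STM2457 median). X, 3 and 11, in red, lie at 1.23, 0.48 and -0.53, and the other 17 autosomes between -0.08 and 0.17.

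Chromosomes 3 and 11 also left the autosomal range. The median of 617 genes on chromosome 3 was 0.48 above that of all autosomes, and the median of 1104 genes on chromosome 11 was 0.53 below it (-0.53), while the other 17 autosomes lay between -0.08 and 0.17. The STM2457 arm gave 1.22 for X, 0.45 for 3 and -0.50 for 11. These are descriptions over genes, which are not replicates, and DNA copy number was not measured in these files.

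Per library, X-linked genes lay 0.28 and 0.31 above autosomal genes in mean log2 CPM in EpiSC, against -1.19 and -1.16 in TSC. The third line of the study, the extraembryonic endoderm line XEN, gave -0.66 to -0.56 in its 3 DMSO libraries, which held 6826496 to 9397814 counts. The lines did not overlap, but 2 against 2 libraries cannot reach an exact permutation p below 0.333, so no test was made. Chromosome 3 lay at 0.31 and 0.31 in EpiSC, against -0.34 and -0.33 in TSC, with XEN between them at 0.09 to 0.10. Chromosome 11 lay at 0.13 and 0.12 in EpiSC, against 0.74 and 0.74 in TSC, and the DMSO XEN libraries lay at 0.07 to 0.17, around the EpiSC values. X-linked genes took 5.10% and 5.15% of the protein-coding counts in EpiSC, against 3.30% and 3.39% in TSC.

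**Figure D5:**
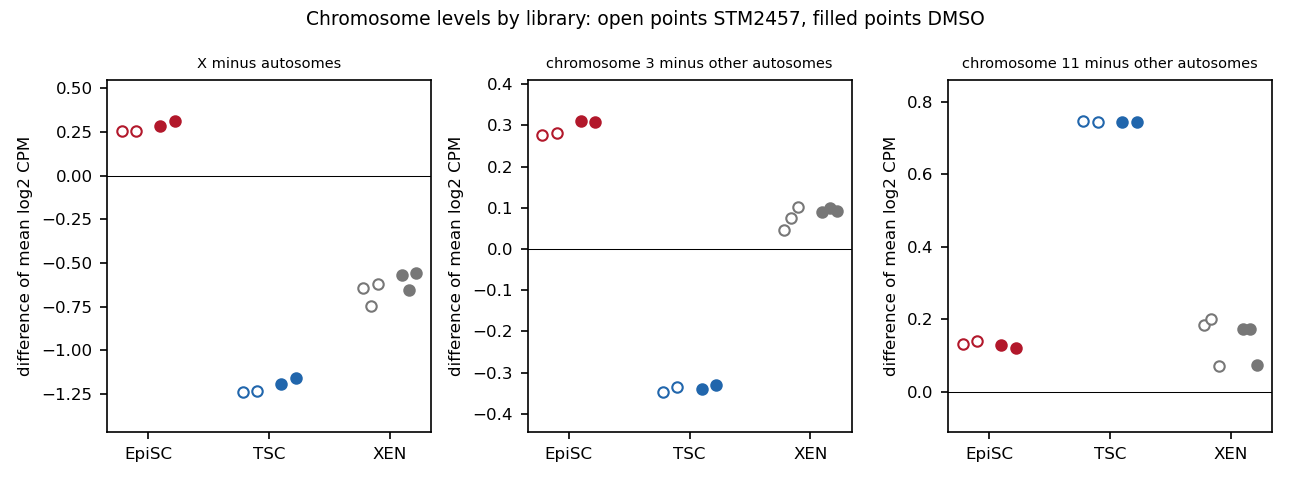
Mean log2 CPM of protein-coding genes on the X, chromosome 3 or chromosome 11 minus that of the autosomes named in each panel (y axis), 1 point per library, with STM2457 libraries open and DMSO libraries filled. On the X, EpiSC libraries lie above 0 and TSC libraries near -1.2; on chromosome 11, TSC libraries stand near 0.74 and EpiSC and XEN libraries below 0.2.

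Within the X, the inactivation centre and escape lists were called near the shares of all X-linked protein-coding genes, 75.3% higher and 16.5% lower. Xist, the RNA that silences the X, was abundant in both lines, with 1075 and 1001 CPM in EpiSC, against 908 and 775 CPM in TSC (log2 fold change 0.302 ± 0.08, adjusted p = 0.0024). This call was lost without EpiSC replicate 1 (adjusted p = 0.057) and without TSC replicate 2 (adjusted p = 0.090), and in a fit of all 14 libraries (adjusted p = 0.36). Of 9 tested genes of the X-inactivation centre list 7 were higher in EpiSC and 1 lower. Nap1l2 had 33.7 and 36.3 CPM in EpiSC, against 0 and 0.162 CPM in TSC. Chic1 averaged 36.2 CPM in EpiSC and 9.26 CPM in TSC and the noncoding Ftx 14.3 CPM in EpiSC and 6.61 CPM in TSC, and all were higher. Rlim, an activator of Xist, was lower, with 150.04 and 128 CPM in EpiSC, against 283 and 284 CPM in TSC (log2 fold change -1.03 ± 0.08, adjusted p = 3.90e-11). Among 13 tested genes of the list of X-linked escape genes 10 were higher and 2 lower, with a median of 0.57. At least 4-fold higher was 1 of them, against 36.0% of X-linked protein-coding genes. Kdm6a averaged 143 CPM in EpiSC and 83.4 CPM in TSC, while Ogt, a glycosyltransferase, averaged 362 CPM in EpiSC and 756 CPM in TSC.

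A set of genes known from trophoblast and germ cells, all X-linked but for Sct on chromosome 7, ran mostly against the X chromosome. Of the Rhox and X-linked trophoblast list 12 of 16 tested members were lower, all 12 at least 4-fold, and 4 higher. Rhox5, a reproductive homeobox gene, had 2.73 and 3.17 CPM in EpiSC, against 1865 and 2038 CPM in TSC (log2 fold change -9.36 ± 0.13, adjusted p = 2.41e-24). Rhox6 had 0 and 0.102 CPM in EpiSC, against 238 and 287 CPM in TSC, and Rhox9 had 0 and 0.102 CPM in EpiSC, against 291 and 319.9 CPM in TSC. Xlr3a averaged 2.21 CPM in EpiSC and 108 CPM in TSC; it and the Rhox genes have close copies, so their counts may be split between copies. Higher in EpiSC were Bex2 (126 CPM in EpiSC and 1.52 CPM in TSC) and Bex1 (706 CPM in EpiSC and 198 CPM in TSC). The 7 Y-linked genes had 0 counts in all 4 libraries.

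Of the genes of m6A, the RNA mark whose writer the study inhibits, 1 of 20 was 4-fold apart in DMSO, against 21.1% of all tested genes. Mettl3, the catalytic subunit, had 34.8 and 32.5 CPM in EpiSC, against 32.99 and 36.9 CPM in TSC and was not called (adjusted p = 0.61). By call, 8 of the 20 tested members were called higher in EpiSC and 6 lower, shares near the 38.3% and 37.1% of all tested genes. The counts became 14 and 3 when scaled to ribosomal protein genes, 5 and 5 in a fit of all 14 libraries, and 2 and 3 against a fold minimum of 1.5. Igf2bp3, a reader of the mark, had 145 and 154 CPM in EpiSC, against 35.03 and 39.4 CPM in TSC (log2 fold change 2.01 ± 0.08, adjusted p = 3.63e-16), and was that gene. Its relative Igf2bp1 ran the other way (242 CPM in EpiSC and 445 CPM in TSC), and Igf2bp2 was not called, though it was higher with a call when scaled to ribosomal protein genes (adjusted p = 0.002) and without TSC replicate 1 (adjusted p = 0.021). Among writers Rbm15, which guides the complex to Xist, had 23.7 and 21.8 CPM in EpiSC, against 61.7 and 55.1 CPM in TSC (log2 fold change -1.36 ± 0.09, adjusted p = 4.88e-12). Mettl16, which methylates other sites, averaged 57.4 CPM in EpiSC and 119.5 CPM in TSC, and Mettl14, the partner of METTL3, 57.0002 CPM in EpiSC and 35.04 CPM in TSC.

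Polycomb genes, which keep developmental genes silent, were lower more often than higher in EpiSC: 5 of the 28 tested members were called higher in EpiSC and 17 lower, or 8 and 13 when scaled to ribosomal protein genes. Phf19, an accessory subunit of the H3K27 methyltransferase, had 8.502 and 7.73 CPM in EpiSC, against 178 and 171 CPM in TSC (log2 fold change -4.43 ± 0.10, adjusted p = 2.36e-21). Ezh1, the alternative catalytic subunit, had 18.1 and 18.9 CPM in EpiSC, against 114 and 115 CPM in TSC (log2 fold change -2.63 ± 0.09, adjusted p = 4.19e-18), and the core subunit Suz12 averaged 205 CPM in EpiSC and 387 CPM in TSC. Cbx7 averaged 62.9 CPM in EpiSC and 166 CPM in TSC. Phc1 was the furthest of the 5 genes called higher, with 332 and 321 CPM in EpiSC, against 54.5 and 52.2 CPM in TSC (log2 fold change 2.61 ± 0.08, adjusted p = 4.85e-19).

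Metabolic genes differed by pathway. In glycolysis 4 of the 25 tested members were called higher in EpiSC and 15 lower, or 8 and 13 when scaled to ribosomal protein genes. Hk1, a hexokinase, had 58.7 and 57.5 CPM in EpiSC, against 456 and 435 CPM in TSC (log2 fold change -2.94 ± 0.08, adjusted p = 7.06e-20). Pfkp averaged 71.3 CPM in EpiSC and 359 CPM in TSC, Aldoc 15.1 CPM in EpiSC and 119 CPM in TSC, Pdk1, which holds pyruvate back from mitochondria, 67.4 CPM in EpiSC and 255 CPM in TSC, and Ldha 966 CPM in EpiSC and 1813 CPM in TSC; all were lower, Ldha with no call in a fit of all 14 libraries (adjusted p = 0.057). The glucose transporters changed in opposite directions: Slc2a3 had 818 and 795 CPM in EpiSC, against 244 and 230.05 CPM in TSC (log2 fold change 1.77 ± 0.08, adjusted p = 8.14e-16), while Slc2a1 had 600.2 and 575 CPM in EpiSC, against 1191 and 1155 CPM in TSC (log2 fold change -0.997 ± 0.08, adjusted p = 3.77e-11). The enolase Eno1 was higher, at 2562 CPM in EpiSC and 1486 CPM in TSC. Cholesterol synthesis genes were higher in EpiSC, where 18 of the 23 tested members were called higher and 2 lower, with a median of 1.31. Hmgcs1, an early enzyme, had 409.6 and 414 CPM in EpiSC, against 119 and 127 CPM in TSC (log2 fold change 1.75 ± 0.07, adjusted p = 6.12e-16). Cyp51 averaged 264 CPM in EpiSC and 59.9 CPM in TSC, the X-linked Nsdhl 140.2 CPM in EpiSC and 29.4 CPM in TSC, Idi1 63.7 CPM in EpiSC and 13.6 CPM in TSC and the sterol sensor Insig1 128 CPM in EpiSC and 31.1 CPM in TSC. The EpiSC medium held serum replacement and the TSC medium serum, which cannot be told apart from the lines.

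Retinoid and interferon genes split evenly, as did all tested genes (38.3% higher and 37.1% lower). Of 14 tested retinoid genes 7 were higher and 7 lower. Cyp26a1, which degrades retinoic acid, had 4.599 and 4.55 CPM in EpiSC, against 87.9 and 88.2 CPM in TSC (log2 fold change -4.26 ± 0.11, adjusted p = 2.72e-20). Dhrs3 averaged 24.9 CPM in EpiSC and 0.481 CPM in TSC and the receptor Rarb 3.53 CPM in EpiSC and 0.0792 CPM in TSC, both higher. Of 16 tested interferon response genes 7 were higher and 7 lower. Bst2, the viral restriction factor tetherin, had 7.86 and 8.49 CPM in EpiSC, against 82.2 and 88.3 CPM in TSC (log2 fold change -3.38 ± 0.10, adjusted p = 6.36e-19), and the RNA sensor Ifih1 averaged 0.627 CPM in EpiSC and 12.6 CPM in TSC and Oas1a 0.0267 CPM in EpiSC and 6.25 CPM in TSC. Ifitm3 averaged 29.7 CPM in EpiSC and 2.54 CPM in TSC and was higher, and the chemokine Cxcl10 had 0 counts in TSC and 9.59 CPM in EpiSC.

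The counting step's strand setting is not stated in any source available for this work. Xist, Tsix, Mettl3, Igf2bp3, Bmp8b, Wnt7b, Cyp51, Ezr, Gnas, Col4a2, Nid2, Rarb, Cxcl10, Hk1, Car14 and Heph are among the named genes that overlap a gene on the opposite strand, and their values are uncertain to the extent that reads were shared.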

How the data were processed

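The authors deposited whole-number read counts per Ensembl gene for 14 libraries; 4 were used for the main comparison and 4 for its repeat with STM2457. Per the submitters' processing notes, FastQC, Trim Galore, STAR, featureCounts and GRCm39 were used, and their versions and the strand setting are not given in the sources used here. Names came from GENCODE M21 by identifier, which left 3281 identifiers unnamed.

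Genes passed a filter of at least 10 counts (edgeR filterByExpr), were scaled by TMM and were tested with edgeR 4.0.16 (R 4.3.3) by the robust quasi-likelihood test, fitted on the 4 libraries alone. Adjusted p-values are Benjamini-Hochberg over all tested genes. The floor of 3 counts over a line was 0.0784 CPM for the EpiSC and 0.0796 CPM for the TSC libraries. A fold change that rests on 0 to 3 counts in a line is imprecise. The steps were tested on simulated data. Alternatives were another scaling, no filter, a replicate block, larger fits, a fold minimum, DESeq2 1.42.0 and each library left out.

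The 6 markers, Xist, Tsix and Mettl3 were always named, with the 15 largest differences of at least 10 CPM and the 10 most abundant genes at least 4-fold apart per direction, up to 5 members per list and direction by p, and members of chosen families; the ranks pass over pseudogenes, predicted genes, small RNAs and mitochondrial genes. The members and lists were chosen with earlier results of these data known. Replicate libraries of a line differed beyond sampling noise. Some members named by this rule are not reported here.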

Additional observations from a re-analysis of the deposited data

Results flagged for a closer look

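Dnmt3b was the 1 named gene whose libraries separated the lines in opposite directions in the DMSO and STM2457 arms. Its log2 fold change of EpiSC over TSC was -0.083 with STM2457 and 0.07 in DMSO. The difference between the arms was not tested.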

How the results depend on the processing

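The count of calls in DMSO (5950 higher and 5754 lower) was 5917 and 5773 with RLE size factors, 6360 and 6220 with no filter, 6145 and 6071 in a fit of 8 libraries, 5047 and 4971 in a fit of 14 and 5278 and 5204 with DESeq2. Against a fold minimum of 1.5 it was 3482 and 3338 in DMSO, and 3620 and 3475 with STM2457. Leaving out 1 library gave 5501 to 5745 higher and 5449 to 5516 lower in DMSO, and 5939 to 6205 higher and 5565 to 6051 lower with STM2457; a line left with 1 library was assumed to vary like the other. The chromosome medians then ranged from 1.22 to 1.25 for X, from 0.45 to 0.49 for chromosome 3 and from -0.53 to -0.51 for chromosome 11. Chromosome 3 was at 0.53 with no filter and at 0.47 in the fit of 14 libraries, where chromosome 11 was at -0.52. The X-linked minus autosomal level, EpiSC minus TSC, was 1.47 and became 1.32 with genes of at least 10 CPM; the cause was not tested.

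Same-numbered EpiSC and TSC libraries shared no clear deviation (correlation 0.07), so the numbers were not taken to pair them. With the replicate block, 6093 genes were called higher and 5872 lower in DMSO, and 6182 and 5943 with STM2457.

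Among named genes, the uncalled Mettl3 turned to 0.23 (adjusted p = 0.048) with ribosomal protein scaling, and ranged from -0.14 to 0.016 when 1 library was left out (5.41e-06 without EpiSC replicate 2, 0.016 without TSC replicate 2). Ccnd3, also uncalled, turned to 0.15 with ribosomal protein scaling, and Tsix ranged from -0.23 (without EpiSC replicate 1) to 0.42 (without EpiSC replicate 2), with -0.05 without TSC replicate 1. Igf2bp2 was at -0.017 without TSC replicate 2, and 0.23 without TSC replicate 1 (adjusted p = 0.021). Tead2, called in DMSO, lost its call in 7 alternatives. Dnmt3b was called with ribosomal protein scaling (0.34, adjusted p = 0.0012). With a fold minimum of 1.5, calls higher and lower were 12 and 4 for primed pluripotency, 6 and 2 for Hippo, 5 and 1 for DNA methylation, 5 and 1 for escape genes, 1 and 10 for Polycomb, 3 and 8 for glycolysis and 9 and 5 for G1 regulators. In the fit of 14 libraries they were 13 and 4 for primed pluripotency and 2 and 14 for Polycomb.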

Other observations

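Processed pseudogenes, some of them with names of ribosomal protein genes, included some wide gaps, and were chosen after their values were seen. Rps2-ps13 had 651 and 805 CPM in EpiSC, against 0.471 and 0.485 CPM in TSC. Gm13394 had 292 and 256 CPM in EpiSC, against 0.157 and 0.162 CPM in TSC. Rps4l had 0 and 0 CPM in EpiSC, against 354 and 365 CPM in TSC. Of 854 tested pseudogenes, 148 were called and at least 4-fold apart (17.3%), against 21.1% of all tested genes. Such copies can share reads with their parent genes and with each other, so these values are uncertain.

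Of the 41 genes called in opposite directions in the DMSO and STM2457 arms, Fbxo36 had a log2 fold change of EpiSC over TSC of 0.65 with STM2457 and -1.16 in DMSO, and Spp1, the secreted protein osteopontin, 0.57 with STM2457 and -0.57 in DMSO. The difference between the arms was not tested for either gene, and both were chosen after their values were seen.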
